A study of Mus musculus with 15 samples.

Results

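Regulators of G-protein signalling (RGS proteins) switch off signalling downstream of G protein coupled receptors, and 8 of their genes, Rgs1, Rgs2, Rgs3, Rgs10, Rgs12, Rgs14, Rgs18 and Rgs19, were followed in microglia grown from mouse embryonic stem cells. The genes were taken by symbol from the table of 11201 genes, all 8 were found, and all 8 passed the filter on low values. Every gene in the table reached a normalized read count of at least 11.06 in some library. Percentages of all genes below therefore refer to genes with such a signal, not to the whole genome. The cells (ESdM) came from a C57BL/6-ATCC embryonic stem cell line, were grown in N2 medium and were sequenced as 15 RNA libraries. Of these, 6 were left untreated and 3 each received LPS with IFNg (500 ng/ml of the bacterial cell wall component and 20 ng/ml of interferon gamma), IL4 (interleukin 4, 100 U/ml) or TGFb (transforming growth factor beta, 50 ng/ml), each for 24 h. No allele or other agent was named for any group. The labels do not state that replicate libraries were separate cultures, and p-values therefore cover the spread among these libraries alone, possibly technical.

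A receptor that binds its ligand loads the G alpha subunit with GTP, and the free G alpha and G beta-gamma subunits then act on adenylyl cyclases, phospholipases and kinases. RGS proteins bind active G alpha through a shared RGS domain and speed up the hydrolysis of its GTP, which ends the signal. Microglia sense nucleotides, chemokines, complement fragments and lipids through such receptors. Rgs1, Rgs2, Rgs3 and Rgs18 belong to the R4 subfamily, most of whose members are little more than an RGS domain. Rgs10, Rgs12 and Rgs14 form the R12 subfamily, in which Rgs12 and Rgs14 are large scaffolds, and Rgs19, also known as GAIP, belongs to the RZ subfamily.

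Recovered reads per library ran from 2682564 to 18676181. Replicate 3 of the LPS+IFNg group stood apart from the other 2. Its root mean square log2 differences from them over the tested genes were 0.45 and 0.47, against 0.24 between replicates 1 and 2. The difference of each RGS gene between LPS+IFNg and untreated is therefore given with and without replicate 3. Levels per kb and shares of the family include it. Of 12 microglia markers 10 were in the table. Csf1r had a mean normalized read count of 2790 ± 140 (SD, n = 6) and Itgam of 1814 ± 98.3 in untreated cells, but Tmem119, a marker of brain-resident microglia, stood at 7.62 ± 3.42 and Cx3cr1, the fractalkine receptor gene, at 2.60 ± 2.28. With TGFb they stood at 82.3 ± 7.26 and 39.5 ± 6.73 (n = 3), and with LPS+IFNg or IL4 at 3.30 or less on average. None of the 7 neuron, 6 pluripotent and neural stem cell, 6 fibroblast and 6 lymphocyte markers was in the table, so they were not analysed here. The astrocyte markers in the table, 2 of 7, were Slc1a2 (33.1 to 38.3 on average in the 4 groups) and Aldoc, a glycolytic enzyme gene, at 1471 ± 62.0 untreated, 1319 ± 56.0 with LPS+IFNg, 1690 ± 52.8 with IL4 and 1721 ± 102 with TGFb, with every IL4 and TGFb library above the untreated range. Of the oligodendrocyte markers 3 of 7, of the granulocyte markers 1 of 5 and of the endothelial markers 1 of 5 were in the table, all at low values, and those that differed most were Pecam1 (endothelial, 1.34 ± 0.35 untreated and 11.1 ± 4.91 with LPS+IFNg), S100a8 (granulocyte, 7.21 ± 1.86 untreated, 17.9 ± 8.11 with LPS+IFNg, 1.63 ± 1.03 with IL4 and 21.6 ± 3.97 with TGFb) and Cspg4 (oligodendrocyte precursor, 2.62 ± 2.10 untreated and 28.4 ± 1.01 with TGFb). Their part in the results below was not tested. In bulk libraries fewer expressing cells and less RNA per cell cannot be told apart.

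Rgs2, Rgs10 and Rgs12 all rose with TGFb, and their upstream regions are shown for that reason. They did not move together with the other stimuli. With LPS+IFNg Rgs2 and Rgs10 fell (log2 differences -3.54 and -0.43) while Rgs12 rose (0.31), and with IL4 only Rgs12 of the 3 was called (-0.31). RefSeq promoter entries (GRCm38.p6, the build the submitters name as mm10) were matched for 5 of the 8 genes. Each line below gives the 250 bases before an annotated start, 5′ to 3′ on the strand of the gene. Capitals mark TGACG, the core of the cyclic AMP response element, and CAGAC, the box that SMAD proteins bind, on either strand (CGTCA and GTCTG are their other-strand forms).
Rgs2 (chr1:144004150-144004399, minus strand): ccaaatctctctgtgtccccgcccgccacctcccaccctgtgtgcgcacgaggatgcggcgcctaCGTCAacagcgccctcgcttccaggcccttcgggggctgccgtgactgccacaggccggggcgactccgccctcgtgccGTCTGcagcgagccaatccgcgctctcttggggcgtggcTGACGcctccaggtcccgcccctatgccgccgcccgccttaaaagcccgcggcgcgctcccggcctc
Rgs10 (chr7:128418173-128418422, minus strand): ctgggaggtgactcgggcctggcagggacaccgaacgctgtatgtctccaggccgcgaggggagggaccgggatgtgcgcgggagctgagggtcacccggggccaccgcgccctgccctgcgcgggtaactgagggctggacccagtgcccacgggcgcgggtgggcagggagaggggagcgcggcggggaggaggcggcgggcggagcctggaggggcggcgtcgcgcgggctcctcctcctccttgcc
Rgs12, first start (chr5:34949198-34949447, plus strand): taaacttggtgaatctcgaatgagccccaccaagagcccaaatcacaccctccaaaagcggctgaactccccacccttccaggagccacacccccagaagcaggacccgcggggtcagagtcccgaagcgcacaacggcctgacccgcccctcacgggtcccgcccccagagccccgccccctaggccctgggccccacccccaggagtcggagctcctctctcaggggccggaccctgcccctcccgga
Rgs12, second start (chr5:34998828-34999077, plus strand): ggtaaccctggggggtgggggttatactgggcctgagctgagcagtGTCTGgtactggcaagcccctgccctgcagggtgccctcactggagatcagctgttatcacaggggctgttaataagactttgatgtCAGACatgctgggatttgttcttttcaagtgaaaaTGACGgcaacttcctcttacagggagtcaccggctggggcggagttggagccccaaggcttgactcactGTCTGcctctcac
The Rgs2 window held 2 matches to TGACG and 1 to CAGAC. The second Rgs12 window held 1 and 3, and the first Rgs12 window and the Rgs10 window held 0 of either. The windows of Rgs3 and Rgs19, which did not pass the main test with TGFb, were matched but are not printed. The second Rgs3 window held 0 matches to TGACG and 1 to CAGAC, and the first Rgs3 window and the Rgs19 windows held 0 of either. Of all 32851 windows of this length 17.8% held TGACG and 42.2% held CAGAC on at least 1 strand, so CAGAC in particular is common. The same windows were searched on both strands for GGG and CC with 5 bases between them (NF-kB), GAAA repeated with 2 bases between the copies (interferon response), GGAAG (ETS factors) and TGANTCA (AP-1), which are in 45.8%, 2.98%, 64.1% and 6.75% of all windows. The NF-kB letters matched 3 times in the Rgs2 window, 5 times in that of Rgs10 and 7 and 2 times in those of Rgs12. Overlapping matches on opposite strands were counted separately, so there were fewer separate places than matches. Such pairs began at bases 134 and 135 of the Rgs10 window. In the first Rgs12 window they began at bases 156 and 157, 191 and 192, and 227 and 228. The ETS letters matched 1 time in the Rgs2 window and in each Rgs12 window and 0 times in that of Rgs10. The AP-1 letters matched 1 time, in the second Rgs12 window, and the interferon response letters 0 times. These matches describe letters, not sites in use. GC content was 72.4% for Rgs2, 76.4% for Rgs10 and 68.4% and 55.6% for the 2 Rgs12 windows, against a median of 52.4% over all windows.

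Levels can be set beside each other only per length. In untreated cells Rgs2 was the most abundant of the 8, with a normalized read count per kb of exon of 327 ± 21.7 (SD, n = 6), above 89.7% of the 10682 genes with 1 position. Rgs19 followed at 258 ± 22.3, Rgs10 at 94.2 ± 5.77, Rgs1 at 71.0 ± 3.83 and Rgs18 at 32.6 ± 5.87, and the library ranges of these 5 genes did not overlap. Rgs12 (17.2 ± 1.70), Rgs14 (16.6 ± 4.26) and Rgs3 (14.3 ± 1.21) overlapped each other at the low end. With LPS+IFNg the order was different. Rgs19 led at 229 ± 16.8, Rgs1 was second at 150 ± 68.2, then came Rgs10 at 69.9 ± 9.70, and Rgs2 had dropped to 28.1 ± 5.24, beside Rgs3 (29.98 ± 6.76), Rgs12 (21.4 ± 3.06) and Rgs14 (20.3 ± 8.69). Rgs18 was lowest at 4.37 ± 1.92. With IL4 the first 5 genes kept the untreated order, and with TGFb the first 4 did, with Rgs2 at 443 ± 10.7 per kb and Rgs18 last at 7.13 ± 1.58. Lengths here join all exons of a gene. Per kb of the longest transcript Rgs3, which has 17 annotated transcripts, ranked 5 of 8 in untreated cells in place of 8, and ranks 1 to 4 stayed as given in all 4 groups.

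**Figure D1:**
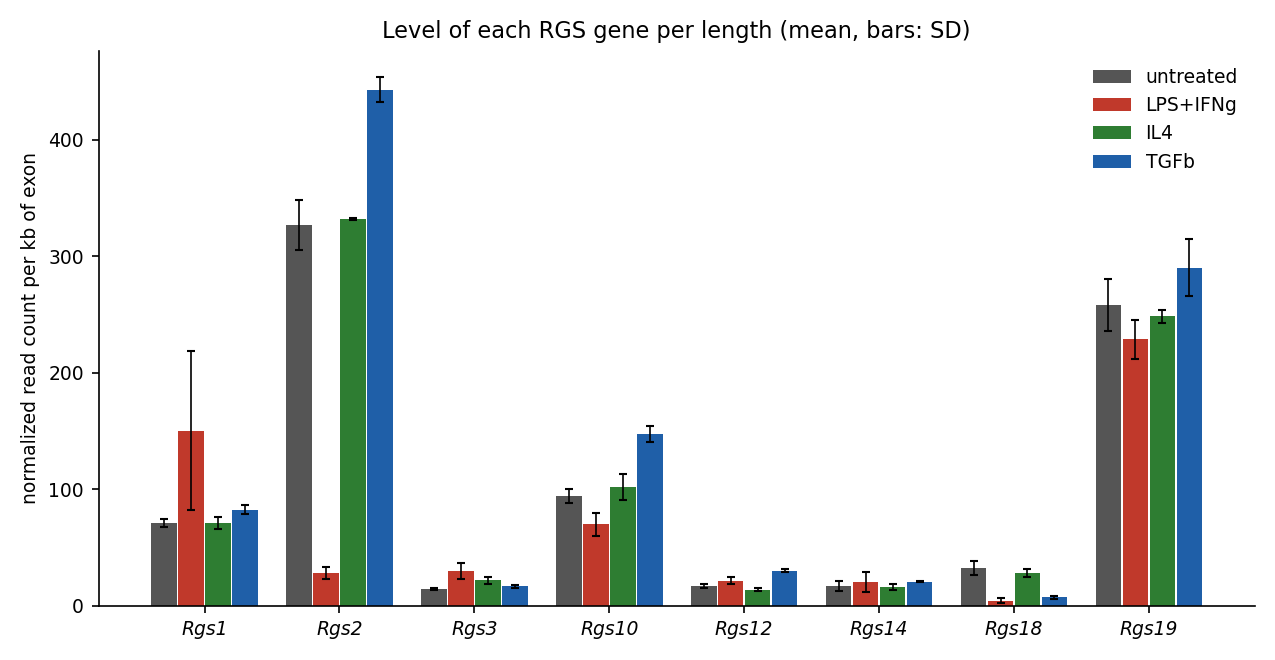
Normalized read count per kb of exon (vertical axis, linear) for the 8 RGS genes, as group means with SD over 6 untreated libraries and 3 per stimulus. Rgs2 is the tallest bar in the untreated, IL4 and TGFb groups (327, 332 and 443 per kb) and drops to 28.1 per kb with LPS+IFNg, where Rgs19 leads.

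Of the 8 genes, 3 rose and 3 fell with LPS+IFNg, 1 rose and 1 fell with IL4, and 3 rose and 1 fell with TGFb. These calls used limma with a Benjamini-Hochberg adjusted p below 0.05 over 11138 genes, on log2(value + 1), a scale that understates changes of low genes. The same rule called 58.9% of all genes for LPS+IFNg (29.5% higher, 29.4% lower), 17.2% for IL4 (9.89% higher, 7.33% lower) and 47.5% for TGFb (24.1% higher, 23.4% lower), and against these shares the counts of 8 genes show nothing particular to the family. A difference of at least 1 on the log2 scale was found for Rgs2, Rgs3 and Rgs18 with LPS+IFNg (10.7% of all genes were called with such a size) for Rgs18 with TGFb (5.05%) and for 0 of the 8 with IL4 (1.02%). Rgs3 lay at this limit, with 1.04 as deposited but 0.86 without LPS+IFNg replicate 3, 0.91 with rescaling to equal totals, 0.96 with quantile normalization and 0.91 with array weights. Rgs1 lay just below it with LPS+IFNg, at 0.99 as deposited. Over the alternatives Rgs1 ran from 0.64 (without LPS+IFNg replicate 3) to 1.22 (without replicate 2), with 1.07 under edgeR. The median size of the log2 difference over the 8 genes was 0.71 with LPS+IFNg against 0.31 over all genes, 0.08 against 0.13 with IL4 and 0.40 against 0.24 with TGFb. The balance of directions over all genes depends on the scaling. Among the calls for LPS+IFNg 50.0% were higher as deposited, 35.5% after rescaling to equal totals and 38.8% after quantile normalization. The 3 settings gave 57.4%, 33.9% and 47.4% higher calls for IL4, then 50.8%, 37.8% and 45.1% for TGFb. Rescaling moved the median of all genes for LPS+IFNg to -0.12.

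**Figure D2:**
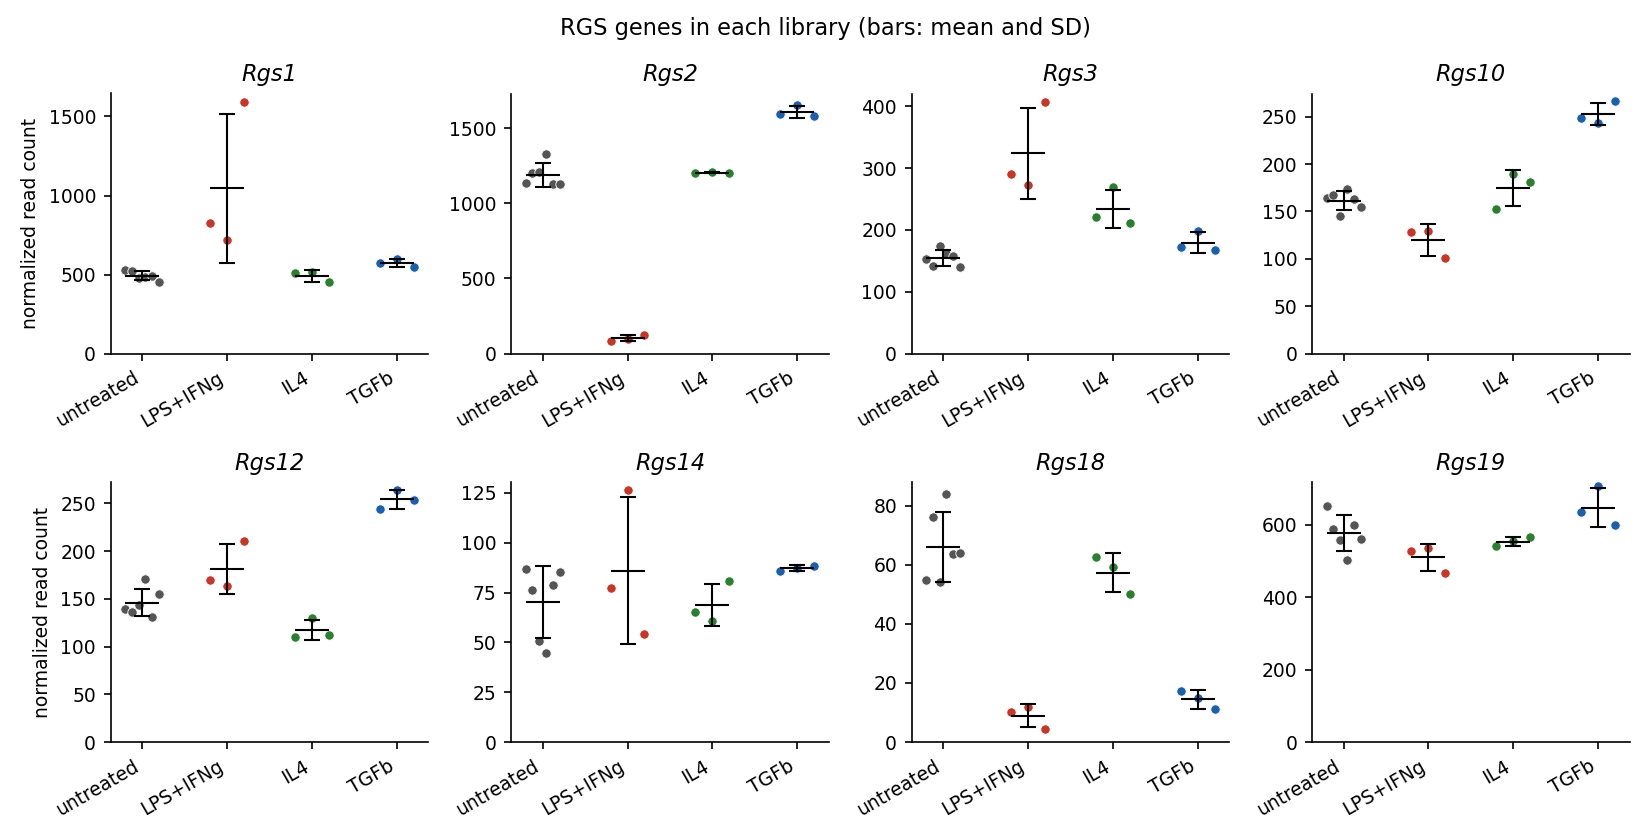
Normalized read counts (vertical axes, linear from 0, a different range in each panel) of the 8 RGS genes in all 15 libraries, with bars for the mean and SD of each group. Rgs2 in the 3 LPS+IFNg libraries (86.0 to 123) lies far below the lowest untreated library (1126), and the LPS+IFNg libraries of Rgs1 spread from 719 to 1589.

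Rgs2 limits signalling through Gq-coupled receptors. Its gene (chromosome 1, 143999338 to 144004161, GENCODE M21 on GRCm38) had untreated normalized read counts of 1126 to 1328 with a median of 1165. The LPS+IFNg libraries gave 86.0, 97.1 and 123, the IL4 libraries 1204, 1207 and 1202, and the TGFb libraries 1592, 1652 and 1579. All LPS+IFNg libraries were below and all TGFb libraries above every untreated library, while the IL4 libraries lay within the untreated range. The mean fell 11.6-fold with LPS+IFNg, from 1186 ± 78.6 to 102 ± 19.02, a log2 difference of -3.54 (SE 0.08, limma adjusted p = 5.07e-17), larger in size than that of 98.8% of tested genes. With TGFb it rose 1.36-fold (0.44, SE 0.08, adjusted p = 0.000187), and with IL4 the difference was 0.02 (95% interval -0.14 to 0.19, adjusted p = 0.881). The fall rested on 333 reads over the 3 LPS+IFNg libraries and 6929 over the untreated ones. Without replicate 3 the LPS+IFNg mean was 91.6, 12.95-fold below untreated.

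Rgs18 is known from platelets and other blood cells. Its gene (chromosome 1, 144752683 to 144775435) was low throughout, with untreated values of 54.1 to 84.1 and a median of 63.8. The values were 10.1, 12.04 and 4.52 with LPS+IFNg, 62.7, 59.3 and 50.1 with IL4, and 17.4, 14.9 and 11.1 with TGFb. Every LPS+IFNg and TGFb library lay below every untreated and IL4 library. The mean was 66.1 ± 11.9 untreated, 7.45-fold higher than with LPS+IFNg (log2 difference -2.84, SE 0.24, limma adjusted p = 7.94e-09) and 4.57-fold higher than with TGFb (-2.12, SE 0.24, adjusted p = 8.08e-07). The TGFb difference was larger in size than that of 99.1% of tested genes. The reads behind these values were 384 over the untreated libraries, 31 over the LPS+IFNg libraries (4 to 14 each) and 54 over the TGFb libraries (7 to 30 each). Without replicate 3 the LPS+IFNg mean was 11.1, 5.98-fold below untreated (-2.46, adjusted p = 1.61e-09). With IL4 the difference was -0.19 (95% interval -0.69 to 0.31, adjusted p = 0.658). Rgs2 and Rgs18 thus fell together with LPS+IFNg but went opposite ways with TGFb.

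Rgs1 is known as a brake on chemokine receptor signalling in lymphocytes. Its gene (chromosome 1, 144242296 to 144249242) had untreated values of 456 to 526.2 with a median of 490. The LPS+IFNg libraries gave 827, 719 and 1589, the IL4 libraries 509, 514 and 450, and the TGFb libraries 572, 600 and 545. All LPS+IFNg libraries were above the untreated range, with replicate 3 far above the other 2, and all TGFb libraries were slightly above it. The mean rose from 493.3 ± 26.6 to 1045 ± 474 with LPS+IFNg (log2 difference 0.99, SE 0.15, limma adjusted p = 2.16e-05). Without replicate 3 the LPS+IFNg mean was 773, 1.57-fold above untreated in place of 2.12-fold, and the log2 difference of 0.64 still passed the test. With TGFb the difference was 0.22 (95% interval -0.11 to 0.54, adjusted p = 0.271) in the fit over all groups, and 0.22 with an adjusted p of 0.00381 in the fit on the 2 groups only, which leaves out the spread of the LPS+IFNg libraries. With IL4 it was -0.01 (95% interval -0.33 to 0.32).

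Rgs3, which acts on both Gi and Gq subunits, was the one member that rose with LPS+IFNg and with IL4. Its gene (chromosome 4, 62559847 to 62704001) had untreated values of 141 to 174 with a median of 156. The values were 291, 273 and 408 with LPS+IFNg, 221, 270 and 211 with IL4 and 172, 198 and 168 with TGFb. The LPS+IFNg libraries lay above all IL4 libraries and these above all untreated ones, and the TGFb libraries overlapped the untreated range. The rise was 2.09-fold with LPS+IFNg (log2 difference 1.04, SE 0.12, limma adjusted p = 4.81e-07) and 1.51-fold with IL4 (0.59, SE 0.12, adjusted p = 0.00181), the latter larger in size than 95.3% of tested genes for IL4. Without replicate 3 the LPS+IFNg rise was 1.82-fold (0.86, adjusted p = 4.90e-07). With TGFb the difference was 0.21 (95% interval -0.04 to 0.46, adjusted p = 0.158). An antisense gene, Gm11209, overlaps 6036 bases of Rgs3, and because the use of strand in counting was not given, its reads could not be told apart.

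Rgs10, a small member of the R12 subfamily, is known in microglia as a restraint on inflammatory activation. Its gene (chromosome 7, 128373621 to 128418758) had untreated values of 146 to 174 with a median of 163. The values were 129, 130 and 100 with LPS+IFNg, 153, 189 and 182 with IL4 and 249, 243 and 266 with TGFb. The LPS+IFNg libraries were all below and the TGFb libraries all above the untreated range. With LPS+IFNg the mean was 1.35-fold lower (120 ± 16.6 against 161 ± 9.88, log2 difference -0.43, SE 0.10, limma adjusted p = 0.000979), and 1.248-fold lower without replicate 3 (-0.32, adjusted p = 0.0108). With TGFb it was 1.57-fold higher (253 ± 11.9, 0.65, SE 0.10, adjusted p = 2.88e-05), and with IL4 the difference was 0.11 (95% interval -0.10 to 0.32, adjusted p = 0.511). Another annotated gene, Gm15503, overlaps 3374 bases of Rgs10 on the same strand, and how shared reads were counted was not given.

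Rgs12, a scaffold with further protein-binding domains, rose with TGFb. Its gene (chromosome 5, 34949445 to 35039644) had untreated values of 132 to 171 with a median of 142. The values were 170, 163 and 211 with LPS+IFNg, 111, 130 and 113 with IL4 and 244, 265 and 254 with TGFb. The TGFb libraries were above and the IL4 libraries below every untreated library, and the LPS+IFNg libraries overlapped the untreated range. The rise with TGFb was 1.74-fold (log2 difference 0.80, SE 0.10, limma adjusted p = 3.95e-06). The other 2 calls were marginal. The rise with LPS+IFNg (0.31, adjusted p = 0.0161) did not pass without replicate 3 (0.19, adjusted p = 0.138), with quantile normalization (0.21, adjusted p = 0.0825) or with rescaling to equal totals (0.18, adjusted p = 0.111). The fall with IL4 (-0.31, adjusted p = 0.0466) was lost in 9 of 20 alternatives, including those that left out IL4 replicate 1 (-0.27, adjusted p = 0.167), IL4 replicate 3 (-0.28, adjusted p = 0.159) or any 1 of the untreated replicates 1, 2, 3, 4 and 6 (-0.33 to -0.26, adjusted p = 0.0502 to 0.0832). The antisense gene Gm43791 overlaps 1576 bases of Rgs12, with the same limit on strand as for Rgs3.

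Rgs14, a scaffold that also binds inactive G alpha and small GTPases, passed no test against untreated cells. Its gene (chromosome 13, 55369732 to 55384687) had untreated values of 44.8 to 86.8 with a median of 77.5, and the SD was 25.6% of the mean. The LPS+IFNg libraries gave 77.5, 126 and 54.2, the IL4 libraries 65.1, 60.7 and 80.8 and the TGFb libraries 85.9, 87.5 and 88.5. All stimulated groups overlapped the untreated range. The log2 differences were 0.24 with LPS+IFNg (95% interval -0.25 to 0.73, limma adjusted p = 0.384), 0.00 with IL4 (-0.49 to 0.49) and 0.35 with TGFb (-0.14 to 0.84, adjusted p = 0.232). The TGFb interval includes the 0.65 measured for Rgs10. The LPS+IFNg value turned on single libraries. It was 0.53 (adjusted p = 0.0495) without replicate 3 and -0.07 (adjusted p = 0.803) without replicate 2.

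Rgs19, which acts on the Gi family, was high and, with the values as deposited, differed from untreated by at most 0.17 on the log2 scale. Its gene (chromosome 2, 181688419 to 181693977) had untreated values of 502 to 651 with a median of 575. The values were 528, 536 and 467 with LPS+IFNg, 540, 555 and 567 with IL4 and 637, 706 and 599 with TGFb. No stimulated group was clear of the untreated range. The log2 differences were -0.17 with LPS+IFNg (SE 0.07, limma adjusted p = 0.0516), -0.05 with IL4 (SE 0.07, adjusted p = 0.692) and 0.17 with TGFb (SE 0.07, adjusted p = 0.0671). The LPS+IFNg difference lay at the threshold and passed in 9 of 20 alternatives, among them edgeR (-0.18, adjusted p = 0.0319) and DESeq2 (-0.17, adjusted p = 0.0398). Its size depended on the scaling, with -0.30 (limma adjusted p = 0.00385) after rescaling to equal totals and -0.24 (limma adjusted p = 0.00865) after quantile normalization. Without replicate 3 it was -0.11 (adjusted p = 0.227).

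**Figure D3:**
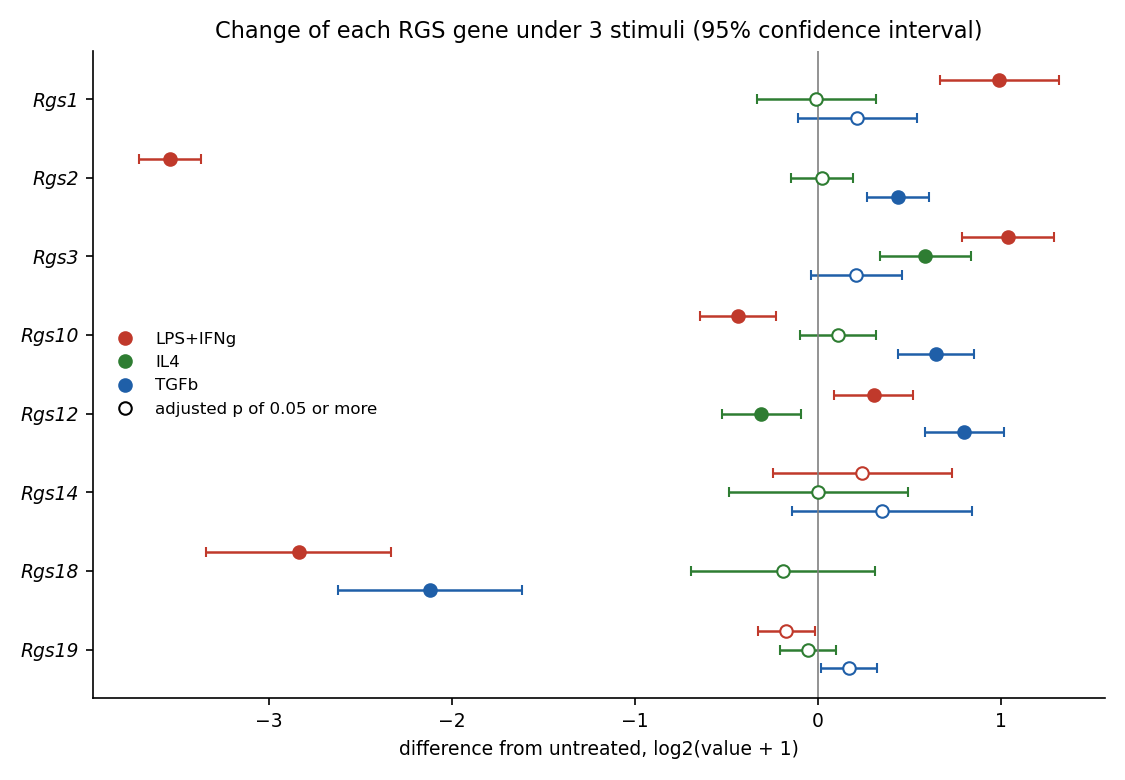
Log2 difference from untreated (horizontal axis) for each RGS gene under LPS+IFNg, IL4 and TGFb, with 95% confidence intervals from the limma fit. Filled points passed the test and open points did not. The lowest points are Rgs2 and Rgs18 with LPS+IFNg (-3.54 and -2.84) and Rgs18 with TGFb (-2.12), and every other point lies between -0.43 and 1.04.

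The stimuli were also compared with each other, which shows where members respond differently. Between LPS+IFNg and IL4, 3 of the 8 genes were higher and 3 lower with LPS+IFNg (57.7% of all genes were called, 28.8% in each direction). Between LPS+IFNg and TGFb 2 were higher and 5 lower with LPS+IFNg (62.6% of all genes, 31.9% higher and 30.8% lower). Between IL4 and TGFb 2 were higher and 4 lower with IL4 (39.7% of all genes, 20.7% higher and 19% lower). These comparisons share libraries with each other and with those against untreated cells.

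Rgs2 was 15.7-fold lower with LPS+IFNg than with TGFb (log2 difference -3.98, SE 0.09, limma adjusted p = 9.44e-17) and 11.8-fold lower than with IL4 (-3.56, adjusted p = 3.59e-16). Rgs10 was 2.11-fold lower with LPS+IFNg than with TGFb (-1.08, SE 0.11, adjusted p = 1.50e-07). Rgs12 was 2.16-fold higher with TGFb than with IL4 (IL4 minus TGFb -1.11, SE 0.12, adjusted p = 5.50e-07), and higher with TGFb than with LPS+IFNg (LPS+IFNg minus TGFb -0.49, adjusted p = 0.00144). Rgs18 was 3.96-fold higher with IL4 than with TGFb (1.93, SE 0.28, adjusted p = 1.81e-05). Its LPS+IFNg and TGFb libraries overlapped, and the call between them (-0.72, adjusted p = 0.0311) was lost in 7 of 17 alternatives, including edgeR (-0.66, adjusted p = 0.0841) and the fits without LPS+IFNg replicate 3 (-0.34, adjusted p = 0.232), TGFb replicate 1 (-0.58, adjusted p = 0.121) or TGFb replicate 2 (-0.69, adjusted p = 0.0733). Rgs1 was higher with LPS+IFNg than with IL4 (1.00, adjusted p = 9.69e-05) or TGFb (0.78, adjusted p = 0.000958), and these differences were 0.65 and 0.43 without replicate 3, both past the test.

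Rgs3 was higher with LPS+IFNg than with IL4 (log2 difference 0.45, SE 0.14, limma adjusted p = 0.00870), a call lost without LPS+IFNg replicate 3 (0.28, adjusted p = 0.0603). Its difference between IL4 and TGFb (0.38, adjusted p = 0.0357) was lost without IL4 replicate 1 (0.41, adjusted p = 0.05003), IL4 replicate 2 (0.27, adjusted p = 0.173), TGFb replicate 1 (0.35, adjusted p = 0.102) or TGFb replicate 3 (0.33, adjusted p = 0.115). Rgs19 was lower with LPS+IFNg than with TGFb (-0.34, SE 0.08, adjusted p = 0.00184), with no overlap between the libraries. Rgs19 was also lower with IL4 than with TGFb (-0.22, adjusted p = 0.0451), which was lost in 7 of 17 alternatives, among them the fits without each IL4 replicate in turn (adjusted p = 0.118, 0.0902 and 0.0681) and without TGFb replicate 1 (0.0806) or 2 (0.205). Rgs14 passed no test between stimuli, with adjusted p-values of 0.462, 0.748 and 0.327.

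The make-up of the family, taken as each gene's share of the summed counts per kb of the 8 genes, followed from these levels. In untreated cells Rgs2 made up 39.3% ± 2.40 (SD, n = 6) and Rgs19 31.1% ± 2.58. With LPS+IFNg the share of Rgs2 was 5.06% ± 0.53 (n = 3), that of Rgs1 26.6% ± 9.60 against 8.54% ± 0.28 untreated, and that of Rgs19 41.7% ± 6.32. In LPS+IFNg replicates 1, 2 and 3 the share of Rgs1 was 22.7%, 19.6% and 37.6% and that of Rgs19 45.1%, 45.7% and 34.4%. With IL4 the shares of Rgs2 (39.9% ± 0.75) and Rgs19 (29.8% ± 0.63) lay within the untreated ranges. With TGFb Rgs2 held 42.7% ± 0.44 and Rgs10 14.3% ± 1.11, against 11.3% ± 0.47 for Rgs10 untreated. The summed level per kb was 801 to 853 in untreated libraries, 525 to 609 with LPS+IFNg, 817 to 850 with IL4 and 1010 to 1078 with TGFb. The LPS+IFNg sums were thus all below and the TGFb sums all above the untreated sums.

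The genes most like a member were sought for the 3 members with a log2 difference of at least 1 against untreated, by the smallest root mean square difference over the 15 libraries among 9159 genes. Closest to Rgs2 were Chst10, a carbohydrate sulfotransferase gene (root mean square difference 0.37 on the log2 scale), the kinase gene Srpk3 (0.39) and Inafm1 (0.48), where the median candidate was at 1.61. Chst10 went from a mean normalized read count of 634 untreated to 79.4 with LPS+IFNg, 619 with IL4 and 693 with TGFb. Closest to Rgs18 were Ptpn22, a phosphatase gene of immune cells (0.40), the transporter gene Abca9 (0.54) and the zinc transporter gene Slc39a10 (0.68). Ptpn22 went from 242 untreated to 44.4 with LPS+IFNg, 157 with IL4 and 54.3 with TGFb. Closest to Rgs3 were Dse, a dermatan sulfate epimerase gene (0.15), the kinase gene Clk4 (0.17) and the acyl-CoA synthetase gene Acsl1 (0.17), against a median of 0.61. Other members were farther away. The nearest member to Rgs2 was Rgs18 at 1.247 and the nearest to Rgs3 was Rgs1 at 0.31. The 15 libraries fall into 4 groups, so this likeness describes group differences in libraries that the genes share.

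**Figure D4:**
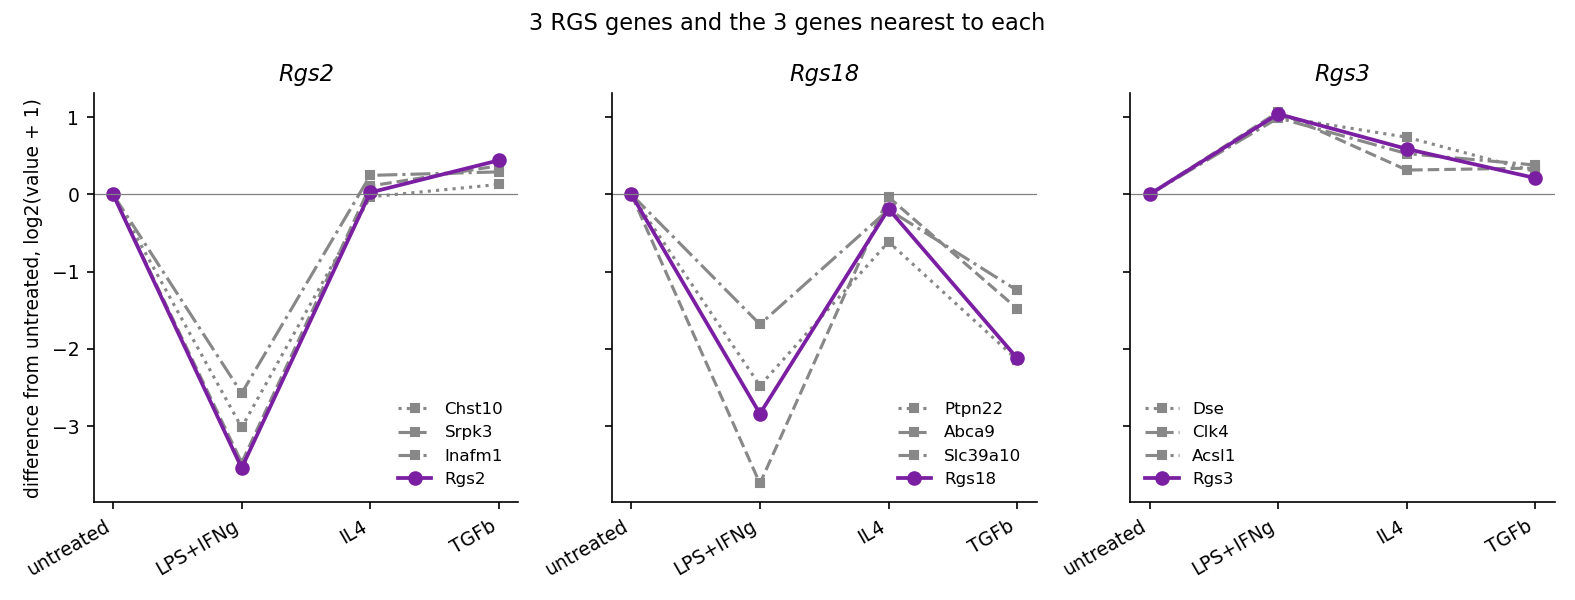
Log2 difference from untreated (vertical axis) in the 4 groups for Rgs2, Rgs18 and Rgs3 (purple) and the 3 genes nearest to each (grey, different line styles). The Rgs2 panel drops with LPS+IFNg alone, the Rgs18 panel drops with LPS+IFNg and TGFb, and the Rgs3 panel is highest with LPS+IFNg. In the Rgs18 panel Ptpn22 also drops with IL4 (-0.61, against -0.19 for Rgs18). In the Rgs3 panel Rgs3, Dse and Acsl1 also rise with IL4 (0.59, 0.74 and 0.53).

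Other genes of G protein signalling, from receptors and G protein subunits to second messenger enzymes, were described from lists matched by symbol. A gene named for 1 stimulus may also have been called with another. Over all genes 29.5% were called higher and 29.4% lower with LPS+IFNg, 9.89% and 7.33% with IL4, and 24.1% and 23.4% with TGFb, and each list's counts stand against these shares. Of 10 G alpha genes tested, 2 rose and 4 fell with LPS+IFNg, 2 rose and 0 fell with IL4, and 5 rose and 0 fell with TGFb (58.9%, 17.2% and 47.5% of all genes were called in either direction). Their median log2 difference was 0.01, 0.11 and 0.22 in that order, against 0.00, 0.00 and 0.01 over all genes. Gna13 rose from 1294 ± 76.9 to 4901 ± 2502 with LPS+IFNg, 3.79-fold, or 2.67-fold without replicate 3. Gnao1, of the Gi family, fell from 244 ± 28.8 to 127 ± 27.9 with LPS+IFNg. Gna15, a Gq family subunit of blood cells, rose 5.18-fold with TGFb, from 12.5 ± 6.14 to 64.7 ± 6.42 (2.41, limma adjusted p = 1.09e-05). Gna12 rose with IL4 from 629 ± 33.9 to 721 ± 33.0 and fell with LPS+IFNg to 354 ± 32.4. Of 10 G beta and gamma genes, 3 rose and 3 fell with LPS+IFNg, 1 rose and 0 fell with IL4, and 3 rose and 2 fell with TGFb (medians 0.04, -0.12 and 0.13, beside 58.9%, 17.2% and 47.5% of all genes called). Gng2 rose with LPS+IFNg (228 ± 17.3 to 335 ± 12.7) and fell with TGFb (to 165 ± 15.3). Gng7 fell with LPS+IFNg (83.8 ± 7.24 to 59.5 ± 7.45), Gng5 rose with TGFb (291 ± 37.1 to 357 ± 13.5) and Gnb1 rose with IL4 (2774 ± 80.3 to 3042 ± 23.1).

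Of 5 receptor kinase and arrestin genes, 0 rose and 2 fell with LPS+IFNg, 2 rose and 1 fell with IL4, and 0 rose and 2 fell with TGFb (medians 0.02, 0.09 and -0.21, beside 58.9%, 17.2% and 47.5% of all genes called). Arrb1, the gene of beta-arrestin 1, which uncouples active receptors, fell from 1256 ± 68.1 to 530 ± 30.5 with LPS+IFNg and to 947 ± 34.1 with TGFb, and rose to 1710 ± 118 with IL4. The receptor kinase gene Grk6 fell with IL4 (470 ± 8.77 to 408 ± 33.4). Of 6 other regulators of G alpha, 1 rose and 3 fell with LPS+IFNg, 0 rose and 1 fell with IL4, and 1 rose and 2 fell with TGFb (medians -0.04, -0.11 and -0.16, beside 58.9%, 17.2% and 47.5% of all genes called). Among them Ccdc88a rose with LPS+IFNg (1620 ± 66.2 to 2323 ± 375), Gpsm1 fell with LPS+IFNg (90.3 ± 8.72 to 65.3 ± 2.49) and IL4 (to 69.6 ± 3.39), and with TGFb Gpsm3 rose (300.4 ± 9.58 to 418 ± 42.2) and Gpsm2 fell (190 ± 24.1 to 138 ± 12.7).

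Of 26 effector and second messenger genes, 5 rose and 14 fell with LPS+IFNg, 4 rose and 3 fell with IL4, and 14 rose and 3 fell with TGFb (median log2 difference -0.25, 0.01 and 0.24, beside 58.9%, 17.2% and 47.5% of all genes called). Pde4b, a phosphodiesterase gene whose product breaks down cyclic AMP, rose 11.4-fold with LPS+IFNg, from 121 ± 9.65 to 1379 ± 245 (3.49, SE 0.11, limma adjusted p = 2.12e-15). The adenylyl cyclase gene Adcy9 fell with LPS+IFNg, from 623 ± 26.7 to 287 ± 9.17, and rose with IL4 to 875 ± 43.1. Adcy3, another adenylyl cyclase gene, rose 5.73-fold with TGFb, from 9.005 ± 2.52 to 51.6 ± 7.23, and also rose with IL4, to 21.8 ± 5.67. Prkar2a, a regulatory subunit of protein kinase A, fell from 1093 ± 42.5 to 727 ± 16.1 with TGFb and to 618 ± 11.5 with LPS+IFNg. Prkar2b fell from 455 ± 32.1 to 330 ± 34.7 with IL4 and to 387 ± 72.7 with LPS+IFNg (limma adjusted p = 0.0449).

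Of 22 G protein coupled receptor genes, 6 rose and 11 fell with LPS+IFNg, 5 rose and 3 fell with IL4, and 9 rose and 4 fell with TGFb, with medians of -0.64, -0.12 and 0.47, beside 58.9%, 17.2% and 47.5% of all genes called. The platelet-activating factor receptor gene Ptafr rose from 7.33 ± 3.20 to 77.9 ± 50.2 with LPS+IFNg (49.0 without replicate 3, 6.69-fold above untreated in place of 10.6-fold), and the lysophosphatidic acid receptor gene Lpar6 fell from 91.1 ± 15.1 to 24.4 ± 2.51. With IL4 Emr1, the F4/80 macrophage marker gene, rose from 2998 ± 111 to 5684 ± 172 and the niacin receptor gene Hcar2 fell from 163 ± 6.93 to 93.0 ± 7.27. Hcar2 rose with LPS+IFNg, to 1682 ± 1068 (10.3-fold, or 6.53-fold without replicate 3). Emr1 also rose with LPS+IFNg (to 6934 ± 590) and with TGFb (to 5554 ± 38.8). With TGFb the adhesion receptor gene Gpr56 rose from 5.38 ± 2.08 to 68.8 ± 5.79. Leaving out LPS+IFNg replicate 3, the counts for LPS+IFNg were 6 higher and 13 lower for the effectors and 5 higher and 11 lower for the receptors.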

How the data were processed

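RNA from 15 libraries was measured, and groups follow the stimulation in the labels. The authors deposited a normalized signal per gene and library. Per the submitters' processing notes TopHat2 2.0.3, Partek 6.6, R 3.0.2 and DESeq2 were used with build mm10, and the annotation, counting rule and use of strand are not given in the sources used here. From the values, the deposited signal is a read count divided by 1 factor per library, with values below 1 set to 1. Whole reads came out for 100% of the values between 1 and 1000 within 0.01 reads, and floored values were taken as 0 reads. All 15 value columns were used, and 0 were left out. Total RNA had been extracted with TRIZOL and made into TruSeq libraries, per the labels' protocols. No 2 libraries were identical, and the chi-square per degree of freedom of recovered reads was at least 1.42 in every pair of a group.

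The main test was limma 3.58.1 (R 4.3.3) with the empirical Bayes trend on log2(value + 1), 1 fit over all libraries and 6 contrasts, for the 11138 genes that reached 10 in 3 or more libraries. The scripts were tested on simulated data. Alternatives were other scalings, pseudocounts, filters and fits, array weights, edgeR 4.0.16 and DESeq2 1.42.0 on recovered reads, and leaving out libraries. The named genes are the 8 members, from each list the called gene with the largest rise and the deepest fall in each comparison with untreated cells (the higher group averaging 50 or more), and the 3 genes nearest to each member with a log2 difference of at least 1. A named gene of the receptor list is not reported here. The members and lists were chosen with earlier results of these data known. Positions, exon lengths and overlapping genes came from GENCODE M21.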

Additional observations from a re-analysis of the deposited data

How the results depend on the processing

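The alternatives gave 888 values for the 48 differences of a member, many of them from the same fit and the same libraries. Of these values 839 kept their side of the threshold, 31 lost a call, 18 gained one and 0 turned a call around. Of the 31 differences called, 25 were called under every alternative tried. For LPS+IFNg against untreated 2 members were higher and 4 lower, in place of 3 and 3, with rescaling to equal totals and quantile normalization, and 3 were higher and 4 lower with edgeR, DESeq2, array weights, a filter at 50 and without the 3 shallowest libraries. For IL4 against untreated the count of lower members was 0 in place of 1 under quantile normalization and without the 3 libraries of smallest depth, and 0 to 1 when 1 library was left out. For TGFb against untreated 5 members in place of 3 were higher in the fit on the 2 groups only and with array weights, which call Rgs1 and Rgs19 as well and call more genes overall (5835 of 10955 and 6638 of 11138, against 5290 of 11138). For IL4 against TGFb 1 to 2 members were higher when 1 library was left out. Over all genes, 1130 to 1868 were called for IL4 against untreated when 1 library was left out, lowest without IL4 replicate 2, in place of 1917. The cause of these moves was not tested. For the pathway lists with LPS+IFNg, leaving out replicate 3, chosen after seeing the data, gave 1 in place of 3 lower genes among the other RGS and RGS-homology genes and 2 higher and 2 lower among the other G alpha regulators. No paired analysis was possible because the labels give no replicate numbers that the groups share. Depth limits Rgs18 most, with 4 to 14 reads per LPS+IFNg library.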

Other observations

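Rgs2, Rgs1 and Rgs18 lie in this order on 1 strand of chromosome 1, within 776098 bases. Of the 10 protein-coding genes in that stretch and 500000 bases to either side 7 were in the table, and Rgs13 and Rgs21, which lie between the 3, were not analysed here. The 7 include Rgs2, Rgs1 and Rgs18 themselves, which set the stretch, so these counts do not describe the neighbours alone. All 7 were called with LPS+IFNg, against 58.9% of all genes. With IL4 1, Trove2, was called (17.2%), and with TGFb 4 were called (47.5%), among them Rgs2 and Rgs18. The 4 neighbours, Cdc73, Glrx2, Trove2 and Uchl5, differed by at most 0.43 in size with LPS+IFNg. Uchl5, a proteasome-associated deubiquitinase gene, rose (log2 difference 0.36, limma adjusted p = 5.30e-05), and Trove2 (-0.43), Glrx2 (-0.29) and Cdc73 (-0.21) fell. The differences of Rgs2 (-3.54) and Rgs18 (-2.84) were thus several times those of their neighbours, while Rgs1, which lies between them, rose (0.99). With TGFb Rgs2 rose (0.44), Rgs18 fell (-2.12), Uchl5 fell (-0.41) and Cdc73 fell (-0.20). These neighbours were looked at after the values of the members were seen.

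Of 19 other RGS and RGS-homology genes 7 were in the table. With LPS+IFNg 1 rose and 3 fell, with IL4 1 rose and 0 fell, and with TGFb 1 rose and 0 fell (medians -0.28, 0.10 and 0.16, beside 58.9%, 17.2% and 47.5% of all genes called). Without LPS+IFNg replicate 3 the lower genes were 1 in place of 3. Snx13, a sorting nexin gene with an RGS homology domain, rose with LPS+IFNg (406 ± 24.1 to 538 ± 111, or 475 without replicate 3) and Akap10, an anchor of protein kinase A, fell (597 ± 27.0 to 447 ± 47.6). Snx14 rose with IL4 (233 ± 18.3 to 327 ± 18.0) and with TGFb (to 304 ± 53.1). Rgs11 and Rgs20, the 2 further RGS genes in the table, were low and passed no test against untreated cells. Rgs11 was at 63.1 ± 11.4 untreated, 54.1 ± 6.94 with LPS+IFNg, 46.5 ± 10.7 with IL4 and 69.9 ± 8.97 with TGFb, and Rgs20 at 24.8 ± 5.30, 19.4 ± 4.02, 21.9 ± 3.16 and 30.2 ± 13.4 in the same order.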
